A study of Mus musculus with 10 samples.

Results

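A set of 8 transcription factor genes that define the hepatocyte were followed through the knockout of Gnmt and the liver lesions that form without it: Hnf4a, Foxa1, Foxa2, Foxa3, Cebpa, Onecut1, Nr5a2 and Prox1. A gene's members were all probe sets annotated to its symbol alone, 17 in total, and each gene was read from its probe set with the highest mean signal over the 10 arrays. These were 1427001_s_at for Hnf4a, 1418496_at for Foxa1, 1422833_at for Foxa2, 1431900_a_at for Foxa3, 1418982_at for Cebpa, 1450252_at for Onecut1, 1456521_at for Nr5a2 and 1437894_at for Prox1. These 8 genes are 8 of 18193 genes with a probe set of their own, and all 8 were among the 11507 genes whose mean signal passed a filter on dim genes. The probe sets were chosen without regard to group, while the genes were chosen with earlier results of these data known.

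All mice were of a mixed 129/B6 strain, and each of the 10 Affymetrix arrays held total RNA of liver tissue. The aged arrays came from single Gnmt knockout (KO) mice. They were 2 hepatocellular carcinomas (HCC, of an 18-month male and a 14-month female), 1 dysplastic nodule of a 21-month female, and the liver next to each of these 3 lesions. The young arrays were 2 Gnmt KO pools and 2 wild-type (WT) pools at 11 weeks, each of 3 mice of 1 sex, with a female and a male pool per genotype. There were no aged WT arrays, and the knockout allele is not given in the sources used here. Glycine N-methyltransferase, the product of Gnmt, is a liver enzyme that uses up the methyl donor S-adenosylmethionine. Each lesion was paired with the adjacent liver that matched it in sex and age, on the assumption that both came from 1 mouse; the labels number no mice.

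Hepatocyte identity is held by a small circuit of transcription factors that bind together at the enhancers of liver genes and at each other's promoters. HNF4A, a nuclear receptor, is needed for the mature hepatocyte programme, and the FOXA proteins are pioneer factors that open chromatin in the embryonic liver. C/EBPα, encoded by Cebpa, drives metabolic genes and holds back division. HNF6, encoded by Onecut1, acts in hepatocytes and bile duct cells, LRH-1, encoded by Nr5a2, controls bile acid and cholesterol genes, and PROX1 acts in hepatoblasts, hepatocytes and lymphatic endothelium.

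The promoters are shown for Hnf4a and Foxa2, the members whose KO signals lay below both WT signals, and for Onecut1, which was among the lowest in the nodule. The windows are from RefSeq on build GRCm38.p6 and run 5′ to 3′ on the gene's strand, 250 bases before to 50 after a transcription start; all 8 genes matched, with 13 windows. Capitals mark matches, on either strand, to TGTTTAC (FOXA), ATTGATT (HNF6), GTTAAT (an HNF1 part site), AAGGTCA (LRH-1), CAAAGT (part of the HNF4 motif) or TTNCNNAA (C/EBP). Hnf4a has an upstream start at chr2:163506607-163506906 and a downstream start at chr2:163546905-163547204, both on the plus strand; the downstream promoter is the one known for adult liver. Foxa2 has an upstream window at chr2:148046920-148047219 and a downstream window at chr2:148045415-148045714, both on the minus strand, and Onecut1 has 1 window at chr9:74861671-74861970 on the plus strand.
Hnf4a upstream: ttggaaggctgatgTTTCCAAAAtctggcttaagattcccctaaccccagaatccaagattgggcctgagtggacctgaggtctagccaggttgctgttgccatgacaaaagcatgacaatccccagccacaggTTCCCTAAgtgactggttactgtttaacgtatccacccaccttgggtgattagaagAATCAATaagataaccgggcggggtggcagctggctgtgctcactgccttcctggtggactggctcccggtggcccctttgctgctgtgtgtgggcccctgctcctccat
Hnf4a downstream: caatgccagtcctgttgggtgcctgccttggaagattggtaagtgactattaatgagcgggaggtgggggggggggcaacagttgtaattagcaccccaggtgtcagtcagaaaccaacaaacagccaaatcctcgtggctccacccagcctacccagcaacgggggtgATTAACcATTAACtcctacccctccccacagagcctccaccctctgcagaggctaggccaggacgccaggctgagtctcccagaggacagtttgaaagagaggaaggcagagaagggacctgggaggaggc
Foxa2 upstream: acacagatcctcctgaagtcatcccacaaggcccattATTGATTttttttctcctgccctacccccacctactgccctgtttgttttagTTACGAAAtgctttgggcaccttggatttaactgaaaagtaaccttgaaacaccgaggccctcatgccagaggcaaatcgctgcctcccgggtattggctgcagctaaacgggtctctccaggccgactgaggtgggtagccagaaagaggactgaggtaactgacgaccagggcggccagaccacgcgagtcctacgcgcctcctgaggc
Foxa2 downstream: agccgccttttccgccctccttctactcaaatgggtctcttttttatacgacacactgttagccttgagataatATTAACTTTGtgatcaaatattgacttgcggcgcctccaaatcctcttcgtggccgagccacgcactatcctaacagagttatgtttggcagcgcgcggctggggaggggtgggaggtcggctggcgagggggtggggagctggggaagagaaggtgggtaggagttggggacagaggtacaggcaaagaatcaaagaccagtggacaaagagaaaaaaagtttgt
Onecut1: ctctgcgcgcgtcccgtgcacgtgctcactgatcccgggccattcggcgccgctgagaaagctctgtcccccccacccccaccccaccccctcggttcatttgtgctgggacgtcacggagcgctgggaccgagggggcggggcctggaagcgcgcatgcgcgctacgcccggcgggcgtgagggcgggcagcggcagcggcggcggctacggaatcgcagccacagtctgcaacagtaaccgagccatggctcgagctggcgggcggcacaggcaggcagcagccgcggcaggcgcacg
The upstream window of Hnf4a held an HNF6 match at position -60 from the start and 3 C/EBP matches, of which the 2 at -236 and -235 overlap. The downstream window held 2 HNF1 part sites, at -81 and -74. The upstream window of Foxa2 held an HNF6 match at -213 and a C/EBP match at -161 that reads on both strands. Its downstream window held an HNF1 part site at -176 that overlaps a CAAAGT match at -172, and a middle window held none. Onecut1, Foxa3, Cebpa and both Prox1 windows held no match; Foxa1 held a TGTTTAC match at -141. Among 32851 windows of 300 bases, the motifs were found in 3.65% (FOXA), 2.86% (HNF6), 7.1% (HNF1 part site), 4.72% (LRH-1), 14.35% (CAAAGT) and 40.68% (C/EBP). GC content was 73% in the Onecut1 window, 69% in Foxa3 and 42% in the upstream Nr5a2 window.

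The libraries differed in ways that touch the results. Gnmt signals were 190 and 245.2 in the young KO pools against 59473 and 52140 in the WT pools, and 11.7 to 329.4 in the aged KO arrays. The labelled tissue showed in albumin, with Alb signals of 62848 to 96840 on all arrays, and summed signals of 6 pancreatic acinar markers of 409.5 to 609.1. Median signals per array ran from 77.4 to 102.4. The ratio of the hybridization controls BioC and BioB reached 1.60 in the aged arrays and was 2.97 to 4.16 in the young ones, so age and array batch cannot be told apart. The 3′ to 5′ ratio of Actb, which reads RNA integrity, was 3.18 and 3.38 in the KO pools against 2.62 and 2.60 in the WT pools. It was 2.46 to 3.62 in the aged arrays. The same ratio of Gapdh did not split the genotypes, at 1.09 and 0.95 in the KO pools against 0.94 and 0.98 in the WT pools. The arrays differed in clock genes. Arntl was at 847.2 in the male HCC and 553.2 in its adjacent liver, at 382 in the female HCC and 337.7 in its adjacent liver, and at 128.7 in the nodule and 13.6 in its adjacent liver. It was at 911.5 in the WT female pool and at 22.2 to 85.2 in the remaining 3 young arrays. Dbp, which Arntl activates, was at 190.6 in the WT female pool and at 8414 to 11097 in those 3 arrays. In the aged arrays, HCC or nodule before adjacent liver, it was at 42.2 and 213.6 in the male HCC mouse. It was at 2390 and 4939 in the female HCC mouse and at 2505 and 7798 in the nodule mouse. No detection call was used. Signals of different probe sets were not set against each other.

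**Figure D1:**
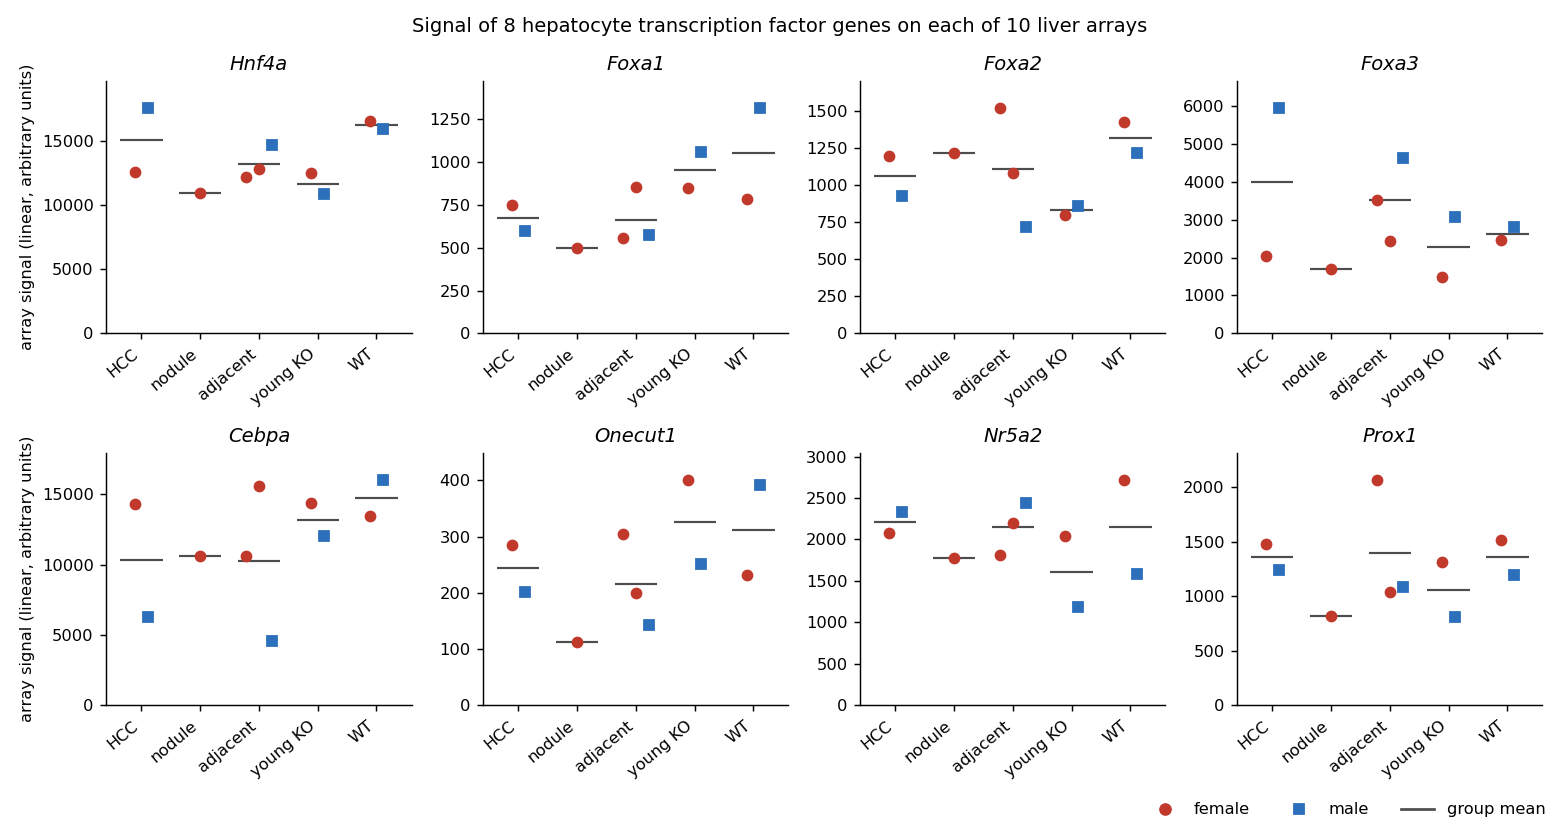
Signals (linear, arbitrary units) of the 8 genes on every array, by group, with circles for females, squares for males and a line at the group mean. The WT and young KO groups are pools of 3 mice, and the male HCC mouse has the lowest Cebpa and the highest Foxa3 signals.

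The first comparison, of young KO with WT liver, asked whether these factors differ before lesions are found. None of the 8 genes was called: 0 of 8 had a limma adjusted p below 0.05, where 88 of 11507 genes did (0.765%), and 2 of 8 had an unadjusted p below 0.05, as did 2169 genes. The log2 differences were below 0 for 7 of 8 genes, with a median log2 difference of -0.34, against -0.05 for all genes. Centring arrays on their 75th percentile moved the median of all genes to 0.07 and the members alike, so that Foxa1 stood at 0.029 and 0 of 8 genes had an unadjusted p below 0.05 in limma. Relative to the median of all genes, Hnf4a was at -0.42 with this centring and at -0.43 without it, and Foxa2 at -0.60 and -0.60. With it 335 genes were called higher and 158 lower, against 42 higher and 46 lower without it. Hnf4a and Foxa2 had both KO signals below both WT signals, as had 2988 genes (26%).

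Hnf4a, read by the probe set with the highest signal, had signals of 10828 (male) and 12490 (female) in KO pools against 15905 (male) and 16530 (female) in WT pools. The KO and WT ranges did not overlap. The fitted log2 difference was -0.48 ± 0.18 (SE, 2 pools of each genotype, limma adjusted p = 0.227), a 95% interval of -0.91 to -0.05. With 1 pool left out, in a model over all other arrays, it was between -0.69 and -0.27.

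Foxa2, the pioneer factor that also acts on glucose and lipid genes in the fasted liver, had signals of 863.1 (male) and 799.3 (female) in KO pools against 1215 (male) and 1425 (female) in WT pools. Again the ranges did not overlap. Its log2 difference was -0.65 ± 0.23 (SE, 2 pools of each genotype, limma adjusted p = 0.211). It was between -0.90 and -0.40 with 1 pool left out in the model over all other arrays.

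The other members overlapped between genotypes. Nr5a2 signals were 1181 (male) and 2039 (female) in KO pools against 1578 (male) and 2716 (female) in WT pools, and Prox1 signals were 806.9 and 1316 against 1197 and 1522 in the same order of sexes. For both genes each KO pool lay below the WT pool of its sex, with log2 differences of -0.41 and -0.41 for Nr5a2 in females and males. Females were the higher sex for Nr5a2 by 0.78 in KO and by 0.78 in WT. Their fitted genotype differences were -0.41 ± 0.21 for Nr5a2 and -0.38 ± 0.23 for Prox1 (SE, 2 pools of each genotype, limma adjusted p = 0.350 and 0.420).

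Foxa3, which acts in adult liver on glucose supply, was at 3076 (male) and 1474 (female) in KO against 2805 (male) and 2462 (female) in WT. Foxa1 was at 1061 (male) and 851 (female) in KO against 1316 (male) and 785.2 (female) in WT. Cebpa was at 12033 (male) and 14331 (female) in KO against 15991 (male) and 13461 (female) in WT. Onecut1 was at 252.2 (male) and 400.6 (female) in KO against 391.1 (male) and 232.5 (female) in WT. The 4 genes differed in opposite directions in the 2 sexes, and with 1 array in each sex and genotype this has no test. Their fitted log2 differences lay between -0.30 (Foxa3) and 0.07 (Onecut1).

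Hnf4a was also read by 3 dimmer probe sets, and all 4 were lower in both KO pools than in the WT pool of the same sex. The dimmest, 1450447_at, had signals of 297.5 (male) and 335.6 (female) in KO pools against 849.6 (male) and 1063 (female) in WT pools, and a log2 difference of -1.54 ± 0.24 (SE, 2 pools of each genotype, limma adjusted p = 0.0498). It was the 1 call among the 9 other probe sets of the members in this comparison, and the chosen probe set of Hnf4a was not called. This probe set was looked at after its values were seen. Its adjusted p was 0.0177 to 0.249 under the 7 alternative settings that keep the 4 young arrays, 3 of which ended the call, and 0.218 to 0.897 in models over the aged arrays too. The set 1421983_s_at had signals of 2871 and 2936 in KO pools against 5632 and 6638 in WT pools, in the order male and female, and a log2 difference of -1.07 (limma adjusted p = 0.0662). The set 1427000_at had signals of 2722 and 4596 in KO pools against 5367 and 5929 in WT pools. Its difference was -0.67 (adjusted p = 0.198). The positions of the probe sets in the Hnf4a transcripts were not analysed here.

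**Figure D2:**
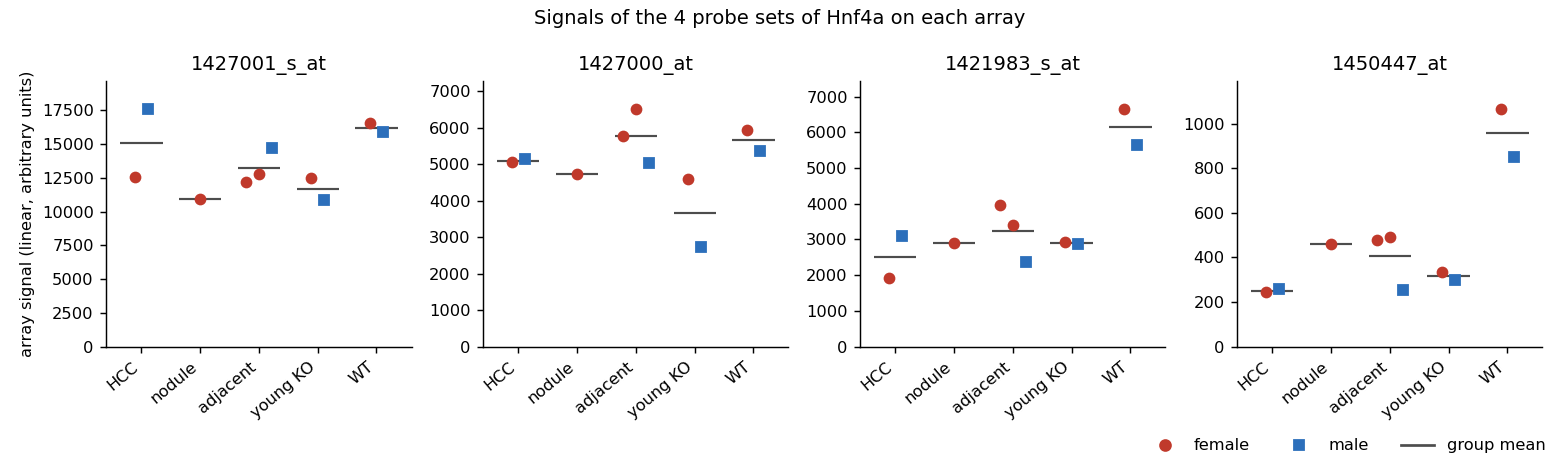
Signals (linear, arbitrary units) of the 4 probe sets of Hnf4a by group, with circles for females, squares for males and a line at the group mean. In the panels of 1421983_s_at and 1450447_at the WT signals, 5632 to 6638 and 849.6 to 1063, lie above all the KO signals, which reach 3957 and 490.3.

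Prox1 and Nr5a2 also had other probe sets. For Prox1, 1421336_at had a log2 difference of -1.03 (limma adjusted p = 0.154) and 1457432_at one of -0.28. For Nr5a2, 1449707_at, too dim for the filter, had a difference of 0.34, opposite in sign to its other 3 probe sets.

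Markers of some other cells moved with this comparison. All 5 tested sinusoidal endothelial markers were lower in KO, with a median log2 difference of -1.12, and Stab2, a scavenger receptor, passed the test (-1.55, limma adjusted p = 0.0487), but not with the added constant doubled (adjusted p = 0.0501). The summed signal of the 6 such markers was 5000 to 5551 in KO pools against 10183 to 13884 in WT pools. The 6 macrophage markers summed to 7519 to 9522 in KO pools against 9803 to 16135 in WT pools, and 4 lymphatic endothelial markers to 3281 to 4530 against 5210 to 6793. Reln, the brightest of the 4, was at 2080 and 3428 in KO pools against 3285 and 4879 in WT pools, in the order male and female. The 10 hepatocyte markers summed to 549700 to 634127 in KO pools against 611770 to 687785 in WT pools, which overlap. Of 6 stellate and fibroblast markers 5 were higher in KO, with a median of 0.28. Their sums overlapped, at 11541.5 to 11734.1 against 9553.5 to 13054.5. So did those of leukocyte markers (622.1 to 1340.2 against 557.7 to 997.2) and cholangiocyte markers (212 to 631.7 against 333.6 to 502.7). No marker was at 0. Their part in the differences of Hnf4a, Foxa2 and Prox1 was not tested, and in bulk tissue fewer cells of a type and less RNA per cell cannot be told apart.

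Genes that these factors are known to control were set beside them. Of 17 HNF4A target genes 12 were lower and 5 higher in KO, with a median of -0.12, against -0.05 for all genes. Cyp8b1, the sterol hydroxylase that sets the kind of bile acid made, fell to 7328 (male) and 4750 (female) in KO pools, against 17181 (male) and 15034 (female) in WT pools (-1.44, limma adjusted p = 0.0419). Its difference was -1.23 in males and -1.66 in females. Without the WT male pool or the KO female pool, in the model over all other arrays, it was 0.11 and 0.40. That model takes its sex term from the aged arrays too. In those Cyp8b1 was at 43.6 and 39 in the male mouse and at 341.2 to 2328 in the females. The left-out fits thus changed the model as well as the arrays. Apoc2, the activator of lipoprotein lipase, rose to 54980 and 44216 in KO pools, against 17348 and 13652 in WT pools, again in the order male and female (1.68, adjusted p = 0.0181). Of 9 FOXA target genes, G6pc, which frees glucose for export, fell by 1.82 on the log2 scale (adjusted p = 0.0181). Afp, the fetal serum protein, rose (adjusted p = 0.0141). Its signals were 1077 and 499.7 in KO pools against 36.3 and 16.1 in WT pools, in the same order. The WT signals are below the filter of 91 and close to the added constant, so the size of the log2 difference depends on that constant (4.49 with a smaller and 3.71 with a larger one). The list had a median of -0.14. The calls of Stab2, Cyp8b1, Apoc2, G6pc and Afp were all lost with no intensity trend, with all 10 arrays in the fit and with any 1 pool left out (limma adjusted p = 0.186 to 0.988).

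The 10 CEBPA target genes, which include G6pc, had a median of -0.11, and 8 of 10 were lower. Of 7 LRH-1 target genes other than Gnmt, the deleted gene, 5 were lower, with a median of -0.36, and 1 was called, Cyp8b1. Scarb1, the receptor for high-density lipoprotein, was at -0.85 and Nr0b2, encoding the bile acid-induced repressor SHP, at -1.46 (limma adjusted p = 0.131 and 0.174). Of 26 other liver transcription factors, 0 were called and 10 had an unadjusted p below 0.05 in limma, with 19 lower and a median of -0.32. Nfia was at -1.42 (adjusted p = 0.0503) and Nr1i3, encoding the drug receptor CAR, at -1.09 (adjusted p = 0.0972). Of 8 fetal or progenitor regulators, 0 were called and 1 had an unadjusted p below 0.05 in limma, Klf6 at 1.48.

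How the factors stood in the tumours was read from the 2 HCC pairs. None was called: 0 of 8 members and 10 of 11507 genes (0.0869%) had a limma adjusted p below 0.05, and 0 of 8 members had an unadjusted p below 0.05 where 873 genes did. The 8 log2 differences lay between -0.07 and 0.47, with a median of 0.14, and no member differed by 2-fold or more in either pair. At least 2-fold differences were found in 10.3% of genes in the male pair and 11.7% in the female pair.

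Hnf4a was at 17563 in the male HCC against 14719 in its adjacent liver, and at 12580 in the female HCC against 12775 in hers. The fitted log2 difference was 0.12 ± 0.27 (SE, n = 2 pairs, limma adjusted p = 0.972), with a 95% interval of -0.50 to 0.73. Cebpa was at 6282 in the male HCC against 4599 in its adjacent liver, and at 14323 in the female HCC against 15543 in hers. The male mouse had the lowest Cebpa signals of the 10 arrays in both tissues. Foxa3 was at 5949 in the male HCC against 4617 in its adjacent liver and at 2034 in the female HCC against 2439 in hers; the male mouse had the highest signals of this gene in both tissues. That mouse also had the highest S100a8, a neutrophil gene, at 8788 in the HCC and 10076 in adjacent liver. The 4 other leukocyte markers summed to 1316 in its HCC and 1423 in its adjacent liver, against 1726 in the female HCC and 1318 in its adjacent liver. Whether these go together was not tested.

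Foxa2 was at 929.6 in the male HCC against 718 in its adjacent liver, and at 1198 in the female HCC against 1085 in hers. Prox1 was at 1246 against 1085 and at 1483 against 1038, again HCC before adjacent liver and male before female. Onecut1 was at 202.3 against 142.4 and at 285.7 against 199.5. These 3 genes were higher in the HCC of both mice. The 4 markers listed for lymphatic endothelium, where PROX1 also acts, summed to 8215 in the male HCC against 5228 in its adjacent liver. In the female they summed to 6705 in the HCC against 4185 in adjacent liver. The markers did not move alike, with Flt4 at a log2 difference of 1.78 and Lyve1 at 1.08. Reln was at -0.025 in the male pair and -0.89 in the female pair, and Pdpn, below the filter, at 0.84 and -1.77. Reln made up much of these sums, at 3109 in the male HCC and 3163 in its adjacent liver. How far the sums read lymphatic endothelium in whole liver was not tested. The part of the lymphatic markers in the Prox1 values was not tested either. The 95% intervals of Foxa2, Prox1 and Onecut1 all included 0, and that of Onecut1 reached 1.39. Foxa1 (596.8 against 573.3, 747.3 against 852.4) and Nr5a2 (2335 against 2445, 2082 against 2203) differed by less than 0.2 in each pair.

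**Figure D3:**
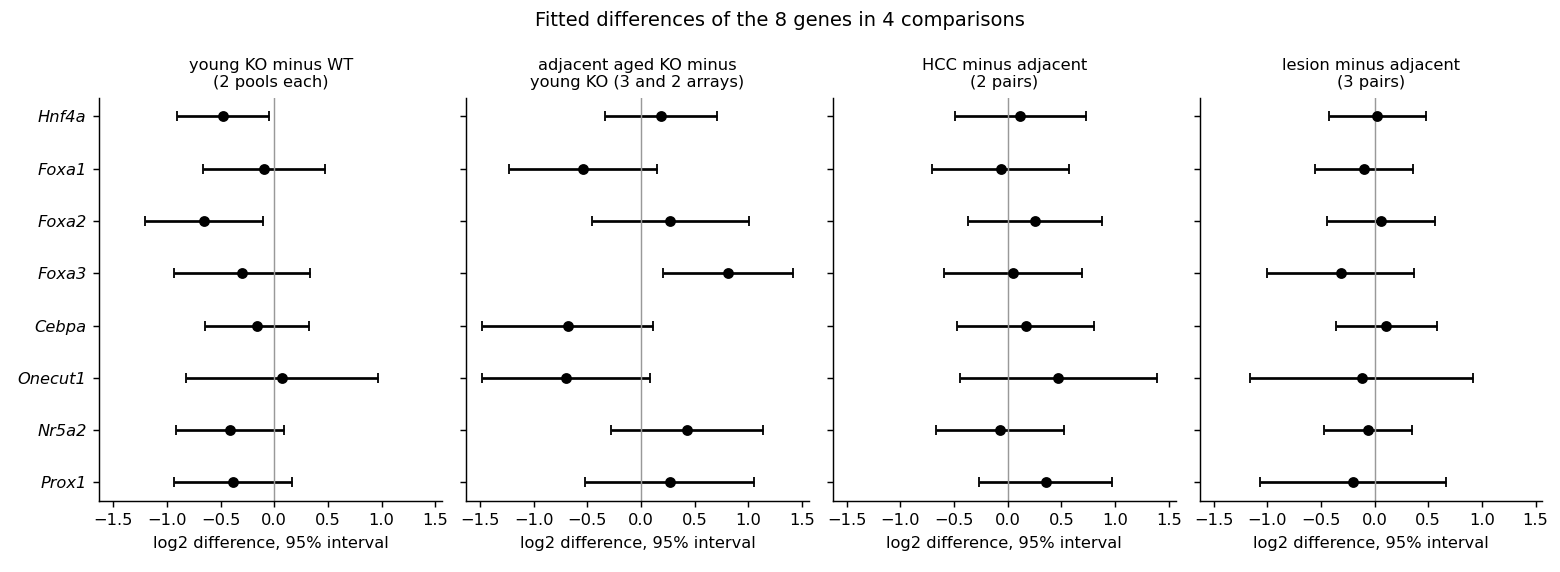
Log2 differences of the 8 genes (horizontal axis) with 95% limma intervals in 4 comparisons; points right of 0 are higher in the first-named group. The intervals of Hnf4a and Foxa2 for young KO minus WT and of Foxa3 for adjacent aged KO minus young KO leave out 0 before adjustment for 11507 genes.

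Known target genes were read from the same fit. Of 10 CEBPA target genes 8 were lower in HCC, with a median of -0.60 against -0.00 for all genes, 0 were called and 4 had an unadjusted p below 0.05 in limma. The median was -0.19 in the male pair and -1.06 in the female pair. Otc, of the urea cycle, was at -1.04 in the male pair and -1.21 in the female pair, and G6pc at -0.93 and -1.42. Pck1, which starts glucose synthesis, was at -0.17 in the male pair and -1.76 in the female pair. Of 17 HNF4A target genes 12 were lower, 0 were called and 3 had an unadjusted p below 0.05 in limma, with a median of -0.30; Cyp7a1, the rate-limiting enzyme of bile acid synthesis, was at -1.63 in the male pair and -0.46 in the female pair. Of 14 listed fetal or progenitor regulators 8 were tested. Of these 8, 7 were higher, 0 were called and 2 had an unadjusted p below 0.05 in limma, with a median of 0.53. Mycn was at 2.17 in the male pair and 2.10 in the female pair and Sox4 at 0.83 and 2.10. The pairs differed for others. In the male pair Snai2 (-1.31), Elf3 (-0.67), Sox9 (-0.16) and Klf6 (-0.03) were lower, while Sox4, Mycn, Myc and Igf2bp3 were higher. In the female pair Snai2 was at 1.40 and Elf3 at 2.50. Among 26 other liver transcription factors 0 were called and 5 had an unadjusted p below 0.05 in limma, with Klf15, a regulator of amino acid and glucose metabolism, at -0.57 in the male pair and -2.06 in the female pair.

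The nodule had 1 array on each side and so no test. Of 8 members, 3 were at least 2-fold lower than in its adjacent liver and 0 at least 2-fold higher, where 502 of 11507 genes (4.36%) were at least 2-fold lower. Prox1 was at 823.8 in the nodule against 2068 in adjacent liver, a log2 difference of -1.31. The adjacent value was the highest of the 10 arrays, and the nodule value was above that of the KO male pool. Onecut1 was at 112.9 in the nodule against 304.7 in adjacent liver, also -1.31, and the nodule had the lowest signal of all 10 arrays. Its second probe set was at 67.7 against 268.3. Foxa3 was at 1692 in the nodule against 3527 in adjacent liver (-1.05). The other probe sets of Prox1 were lower by less, at -0.54 and -0.64. The 4 lymphatic endothelial markers, set beside Prox1 above, summed to 3653 in the nodule against 3056 in adjacent liver. Lyve1 was at 1.46, Flt4 at 0.60, Reln at -0.28 and Pdpn, below the filter, at -2.15. Their part in the Prox1 values was not tested.

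The remaining members were within 0.32 log2 units of adjacent liver. Hnf4a was at 10953 in the nodule against 12158 in adjacent liver, Cebpa at 10594 against 10572, Nr5a2 at 1779 against 1815, Foxa1 at 499.1 against 558.3 and Foxa2 at 1218 against 1522. Foxa1 had its lowest signal of the 10 arrays in the nodule. All 10 hepatocyte markers were lower in the nodule, with a median of -0.44 against 0.03 for all genes, and their sum was 482105 in the nodule against 653796 in adjacent liver. The 6 markers of stellate cells and fibroblasts summed to 11658 in the nodule against 9628 in adjacent liver. Among them the collagens Col3a1 and Col1a1 were at 3284 and 809.4 in the nodule against 744.1 and 21.8 in adjacent liver, the last below the filter of 91, and Dcn was at 5895 against 7554. The part of these in the lower signals was not tested.

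Of 17 HNF4A target genes 16 were lower and 3 by at least 2-fold, Cyp8b1 (-2.63), Slc10a1, the bile acid importer (-2.30), and Cyp7a1 (-1.32). Their median was -0.46, near the -0.44 of the 10 hepatocyte markers, of which 0 were lower by at least 2-fold. Ttr is in both lists, so they are not independent, and whether the fall was particular to the target genes was not tested. All 10 CEBPA target genes were lower, with a median of -0.46, and Pck1 (-1.38) and Hamp (-1.17) by at least 2-fold. The 7 LRH-1 target genes other than Gnmt had a median of -0.27, and 3 of them, Abcg5, Abcg8 and Scarb1, were within 0.1 of adjacent liver. Afp was at 10859 in the nodule against 290.9 in adjacent liver. Of 8 fetal or progenitor regulators 5 were higher and 3 lower, with a median of 0.28. Sox4 and Myc were higher by 1.67 and 1.40, while Mycn was at -0.96 and Snai2 at -0.71. Of 26 other liver transcription factors 20 were lower, with a median of -0.34 and with Rxra, the shared partner of the nuclear receptors, at -1.08.

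The nodule effect was set against the HCC effect in a limma fit over the 6 aged arrays, an analysis added after the values were seen. The nodule side is a single pair, so the residual spread, with 1 degree of freedom, comes from the 2 HCC pairs, and the 3 genes given were picked for their nodule values. None of the 8 members was called, where 6 of 11507 genes were (0.0521%), and 577 genes had an unadjusted p below 0.05. The effect in the nodule minus that in HCC was -1.66 ± 0.47 for Prox1 (SE, limma adjusted p = 0.570), -1.78 ± 0.70 for Onecut1 (adjusted p = 0.936) and -1.10 ± 0.48 for Foxa3 (adjusted p = 0.996).

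**Figure D4:**
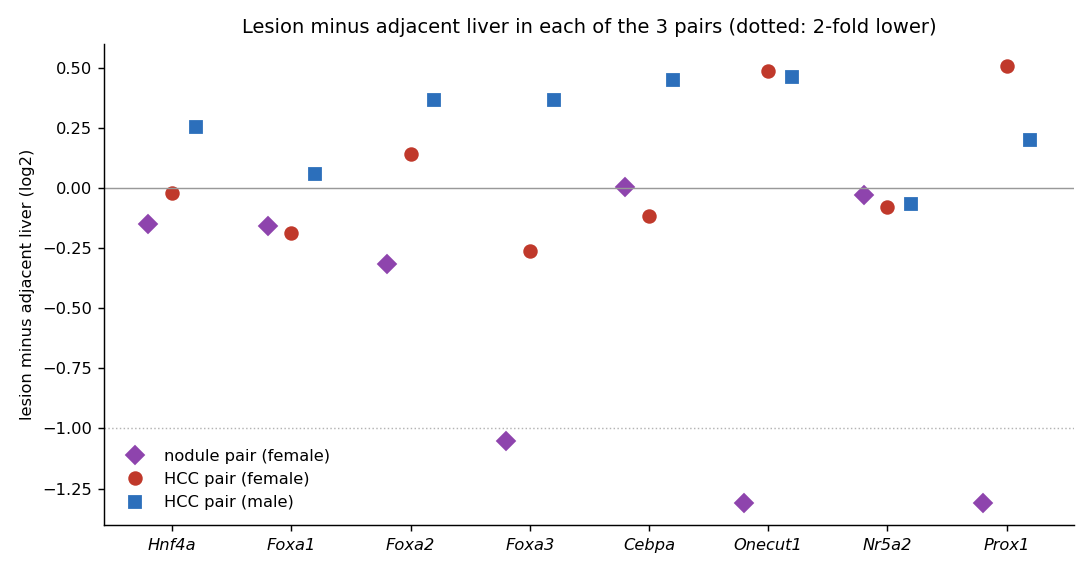
Log2 difference of lesion minus adjacent liver for each of the 3 pairs, with a dotted line at 2-fold lower. Onecut1, Prox1 and Foxa3 lie at -1.31, -1.31 and -1.05 in the nodule pair, and all points of the HCC pairs lie between -0.26 and 0.51.

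Over all 3 lesion pairs 0 of 8 members were called by limma and 1 of 11507 genes was (0.00869%); 0 of 8 members and 1125 genes had an unadjusted p below 0.05. The member differences lay between -0.32 (Foxa3) and 0.11 (Cebpa), with a median of -0.08. Among the target genes and regulators listed, those with the largest differences were Afp at 3.44 (limma adjusted p = 0.356), Sox4 at 1.53 (0.226), Slc10a1 at -1.29 (0.442) and Cyp8b1 at -1.27 (0.475). The pairs differed. In the order nodule, male HCC and female HCC, Afp was at 5.14, 4.96 and 0.21 and Sox4 at 1.67, 0.83 and 2.10. Slc10a1 was at -2.30, 0.20 and -1.77, and Cyp8b1 at -2.63, 0.11 and -1.31. The male Cyp8b1 signals, 43.6 against 39, were below the filter of 91.

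The adjacent liver of aged KO mice was compared with the young KO pools, a comparison in which age, lesion and array batch cannot be told apart and which shares the young KO pools with the genotype comparison and the adjacent livers with the HCC one. In limma 0 of 8 members and 0 of 11507 genes (0%) were called, while 1 of 8 members and 1393 genes had an unadjusted p below 0.05. That member was Foxa3, at 3527 (nodule mouse, female), 2439 (HCC mouse, female) and 4617 (HCC mouse, male) in adjacent liver against 1474 (female) and 3076 (male) in young KO liver. The ranges overlapped, but each adjacent liver was above the young KO pool of its sex, with a fitted log2 difference of 0.81 ± 0.26 (SE, n = 3 and 2 arrays, limma adjusted p = 0.393). Without any 1 array it was 0.58 to 0.98.

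Cebpa, Onecut1 and Foxa1 were lower in the adjacent livers by values that did not pass. Cebpa was at 10572, 15543 and 4599 in the adjacent livers of the nodule mouse, the female HCC mouse and the male HCC mouse, against 14331 (female) and 12033 (male) in young KO liver (-0.69 ± 0.34, adjusted p = 0.462). Foxa1 was at 558.3, 852.4 and 573.3 against 851 and 1061, in the same order (-0.54 ± 0.29, adjusted p = 0.488). Onecut1 was at 304.7, 199.5 and 142.4 against 400.6 and 252.2 (-0.70 ± 0.33, adjusted p = 0.448). Hnf4a, at 12158, 12775 and 14719 against 12490 and 10828, differed by 0.19 ± 0.22, and Foxa2, Nr5a2 and Prox1 differed by 0.27, 0.43 and 0.27. Among the target genes Cyp8b1 was lower by the widest margin, at -3.63 with signals of 2193, 2328 and 39 against 4750 and 7328 (limma adjusted p = 0.393).

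Set in order over the 5 groups, Hnf4a was highest in WT liver (16217 ± 442.1, SD, n = 2), followed by HCC (15071 ± 3523, n = 2), adjacent liver (13218 ± 1336, n = 3), young KO liver (11659 ± 1175, n = 2) and the nodule (10953). Each of these groups overlapped its neighbour in that order. Foxa1, Foxa2 and Cebpa were also highest in WT liver, Foxa3, Nr5a2 and Prox1 were highest in HCC on the log2 scale, and Onecut1 in young KO liver. The nodule was the lowest group for Hnf4a, Foxa1, Foxa3, Onecut1 and Prox1. Neighbours in the order did not overlap for Foxa1 between young KO liver and HCC and between adjacent liver and nodule. The same held for Foxa2 between HCC and young KO liver, for Cebpa between young KO liver and nodule and for Onecut1 between adjacent liver and nodule. Elsewhere neighbouring groups overlapped. These were 5 of 32 pairs of neighbours, 3 of them with the single nodule array, where 27.6% of such pairs over all genes did not overlap.

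Among the chosen probe sets Hnf4a varied least over the 10 arrays, with a highest signal 1.62 times the lowest, and 7.02% of genes had a smaller range. This rests on the brightest probe set, since its other 3 ranged 2.39, 3.45 and 4.38 times. Foxa3 varied most among the chosen sets, at 4.04 times, and 74.2% of genes had a smaller range. The range of Foxa1 was 2.64 times and that of Cebpa 3.48 times. The factors did not run together: the 28 pairwise Pearson correlations of log2 signal over the 10 arrays, which share mice, pools and age groups, lay between -0.73 for Foxa3 and Cebpa and 0.66 for Foxa1 and Onecut1. In the ranking that follows, symbols of clones or predictions were passed over, 2 of them before Cnppd1. The genes most like each member over the 10 arrays, by Pearson r among 11499 other genes, were Wbp1l (0.95) and Tbc1d2b (0.94) for Hnf4a and Adgrv1 (0.97) and Cnppd1 (0.90) for Foxa1. They were Ahdc1 (0.94) and Hectd4 (0.92) for Foxa2, Tbl2 (0.96) and Usp1 (0.95) for Foxa3, and Adipor2 (0.97) and Usp33 (0.96) for Cebpa. They were Prxl2a (0.95) and Nat1 (0.89) for Onecut1, Kmt2a (0.96) and Fryl (0.93) for Nr5a2, and Atp6v1e2 (0.87) and Polr3g (0.85) for Prox1.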

How the data were processed

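Liver RNA was measured on 10 Affymetrix arrays. Deposited was an intensity for each probe set, not logged, which the authors computed with GCOS from 5 ug of total RNA, per the labels and the submitters' processing notes; its settings are not given in the sources used here. The 2% trimmed mean was 500 on every array. Of 45101 probe sets, 64 were controls and 34945 listed 1 gene, 932 several and 9211 none.

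Before the log2 step a constant of 16.8 was added to each signal (the 20th percentile of the table). Each gene was read from its probe set with the highest mean signal, and genes with a mean above 91, the median of all values, were tested. That left 11507 genes. The models were fitted with limma 3.58.1 in R 4.3.3 (lmFit, eBayes with an intensity trend), with Benjamini-Hochberg adjustment over all 11507 genes, and called at 0.05. Sex was a term in the genotype comparison and in that of adjacent with young KO liver, and the inferred mouse in the lesion comparisons. The genotype and HCC fits left 1 residual degree of freedom and the other 2 fits left 2, so the variance came mainly from the prior over genes; the procedure was tested on simulated data. P-values rest on that prior and on the residual spread, not on replicate pools of 1 sex and genotype. In the genotype fit the residual is how far the genotype difference varied between the sexes. In the lesion fits it is how far the lesion difference varied between pairs. In the adjacent liver fit it is the spread of arrays left after the sex term. Leaving out a young pool or an HCC pair needed a model over all other arrays, whose sex term rested on young and aged arrays alike.

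The members and lists were chosen with earlier results of these data known, the lists are background knowledge, and the lists of target genes share members. Genes named were the members, Gnmt, the called members of each list or up to 4 with the largest differences, and the 2 genes most like each member. Among the latter, symbols of clones or predictions were passed over. Arntl, Dbp, S100a8, the named fibroblast and lymphatic markers and the probe set 1450447_at were chosen after their values were seen. Listed genes with no probe set of their own were not analysed here.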

Additional observations from a re-analysis of the deposited data

Results flagged for a closer look

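Differences of opposite direction were seen for several members, each between single arrays and, except where the nodule was set against HCC in the text above, not tested.

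Between the sexes, KO minus WT was positive in females and negative in males for Onecut1 (female minus male 1.344), Cebpa (0.5) and Foxa1 (0.42), and negative in females and positive in males for Foxa3 (-0.867). HCC minus adjacent liver was negative in the female and positive in the male for Foxa3 (-0.625), Cebpa (-0.566), Hnf4a (-0.277) and Foxa1 (-0.242), all as female minus male on the log2 scale. The lesion minus adjacent difference of the nodule pair opposed both HCC pairs for Onecut1 (-1.31), Prox1 (-1.31) and Foxa2 (-0.318). The WT female pool and both HCC mice, on which several of these rest, had Arntl signals of 337.7 to 911.5, against 13.6 to 128.7 on the other arrays. Dbp did not group the arrays in this way. It was at 190.6 in the WT female pool and at 42.2 and 213.6 in the male HCC mouse. In the female HCC mouse it was at 2390 and 4939, and in the nodule mouse at 2505 and 7798.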

How the results depend on the processing

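The number of members called stayed at 0 of 8 in the 4 limma comparisons under every alternative run on the chosen probe sets. Counts over all genes moved. The genotype comparison called 133 genes with an added constant of 8.4, 451 with quantile normalization, 493 with arrays centred on the 75th percentile (335 higher and 158 lower, against 42 and 46 as reported), 138 with no filter on dim genes, 1 with no intensity trend, 160 with the probe set of highest mean log2, 2 with all 10 arrays in the fit, and 0 to 9 with 1 pool left out. HCC called 1 with quantile normalization, 4 with that centring, 19 with no filter and 0 with no trend, with no replicate block or with all 10 arrays, and 4 to 7 with 1 pair left out. The lesion pairs called 2 with that centring, 3 with no filter, 0 with no trend or no replicate block, and 2 to 135 with 1 pair left out. Adjacent liver called 0 to 354 with 1 array left out. Centring moved the median of all genes to 0.07 for genotype and -0.06 for adjacent liver, against -0.05 and 0.09; the members moved with it, and relative to it Hnf4a was at -0.42 with the centring and -0.43 without.

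Signs of small differences turned. Centring, which moved all genes alike, gave Foxa1 0.029 for genotype and Hnf4a -0.0222 for lesions, turns set by the scaling and not by these genes. With 1 array or pair left out, the genotype ranges were -0.56 to 0.36 (Foxa1), -0.79 to 0.19 (Foxa3), -0.82 to 0.50 (Cebpa), -0.54 to 0.68 (Onecut1) and -3.28 to 0.40 (Cyp8b1). The HCC ranges were -0.0222 to 0.25 (Hnf4a), -0.19 to 0.0563 (Foxa1), -0.26 to 0.36 (Foxa3) and -0.12 to 0.45 (Cebpa). The lesion ranges were -0.0863 to 0.12 (Hnf4a), -0.0891 to 0.25 (Foxa2), -0.66 to 0.0521 (Foxa3), -0.0574 to 0.23 (Cebpa), -0.42 to 0.47 (Onecut1) and -0.56 to 0.35 (Prox1). The ranges for adjacent liver were -0.0031 to 0.44 (Hnf4a), -0.26 to 0.67 (Foxa2) and -0.0278 to 1.04 (Nr5a2). Other probe sets gave the opposite sign for genotype in Onecut1 (-0.43) and Nr5a2 (0.34). For HCC they did so in Hnf4a (-0.21, -0.17 and -0.47), Nr5a2 (0.27, 0.25 and 0.0607) and Prox1 (-0.38). For lesions they did so in Hnf4a (-0.29, -0.21 and -0.33), Nr5a2 (0.19 and 0.0148) and Prox1 (0.13), and for adjacent liver in Nr5a2 (-0.17 and -0.77) and Prox1 (-0.11 and -0.11). The cause was not tested. The probe set of Hnf4a that was called kept its sign in every setting, with log2 differences between -1.65 and -1.37. Each group has 1 to 3 arrays, which limits what any of these fits can separate.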
